A study of Mus musculus with 12 samples.

Results

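S100 proteins are small calcium-binding proteins, and 8 of their genes were described here in mouse rib chondrocytes, the cells that make rib cartilage: S100a1, S100a4, S100a6, S100a10, S100a11, S100a13, S100a16 and S100b. The genes were chosen by name with earlier results of these data known, and all 8 were found by symbol among 17922 genes in the table, which lists 16 S100 family genes in all. The changes between knockout and control given for them are therefore a description of chosen genes. RNA-seq was made on 12 samples in 4 groups of 3. LDH knockouts came from mice at postnatal day 5 that carried Col2-Cre, floxed Ldha alleles and a single functional Ldhb allele (Ldhb+/-). Both genes encode subunits of lactate dehydrogenase, the enzyme that turns pyruvate into lactate. Acly knockouts came from embryos at day E18.5 that carried Col2-Cre and floxed alleles of Acly, the gene of ATP citrate lyase, a source of acetyl-CoA in the cytoplasm. Col2-Cre is a recombinase driven by a type II collagen promoter, so cells of the preparation in which that promoter was never active keep the floxed genes. Each knockout had littermate controls of its own age. Whether the controls carried Col2-Cre, floxed alleles or the Ldhb deletion is not given in the sources used here. The strain of every group was C57BL/6-dominant mixed. Cells were freed with collagenase overnight and kept in culture for about a day before lysis. The labels do not say whether a sample was 1 mouse or a pool, so p-values measure only the spread between these samples.

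An S100 protein carries a pair of EF-hands, the helix-loop-helix motif that binds calcium, and most members work as dimers that open a binding surface for a partner protein when calcium rises. They have no enzyme activity of their own, and the partners range from annexins at membranes to non-muscle myosin in the cytoskeleton. In cartilage the family has long served pathologists, since S100b marks chondrocytes as it does Schwann cells, melanocytes and fat cells. S100a1 and S100b are known targets of SOX9 with SOX5 and SOX6, the transcription factors that hold the chondrocyte fate. Most S100 genes of the mouse lie close together on chromosome 3, whereas S100b lies alone on chromosome 10.

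Depth was between 26362407 and 28154143 expected counts per library, and 15553 to 16258 genes had a value above 0. On the first principal component (73.3% of the variance) the LDH set stood apart from the Acly set, and Acly knockout replicate 2 lay at 35.4 against 60.4 to 70.7 for the other samples of its age. The targeted genes were checked first. Ldha fell by 3.29 on the log2 scale in LDH knockouts (edgeR adjusted p = 3.26e-07), and Acly fell by 1.41 in Acly knockouts (adjusted p = 0.0313). Ldhb showed no fall in LDH knockouts, at 15.1 against 11.7 CPM (counts per 1000000 counts). Every knockout lay above every control, as for 11.9% of genes tested there, with no call (0.37, edgeR adjusted p = 0.115). Defining markers of chondrocytes were present in every sample. As CPM of total counts, Col2a1, the main cartilage collagen, was at 5619 to 22883 CPM, Acan at 684 to 2157 CPM and Sox9 at 550 to 860 CPM. Fibroblast and perichondrium markers were also high. They summed to 32456 to 44857 CPM in LDH controls, against 10975 to 12668 CPM for chondrocyte markers. In LDH knockouts these sums were 39434 to 43756 against 19837 to 29307 CPM. They were 16651 to 19733 against 10081 to 11415 CPM in Acly controls, and 13874 to 18508 against 16925 to 19181 CPM in Acly knockouts. The share of each cell type was not measured. Summed Y-linked signal was at most 0.0367 CPM in all 3 LDH knockouts, and 93, 102 and 0.59 CPM in LDH controls 1 to 3. The Acly set held low and high libraries on both sides, with 0.0755, 74.3 and 82.8 CPM in knockouts 1 to 3 and 0.375, 121 and 2.83 CPM in controls 1 to 3.

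Levels between genes were compared in TPM, the authors' deposited value per transcript length. S100a11 was the most abundant member in all 12 samples, followed by S100a6, S100a10, S100a1 and S100a4, while S100a13, S100a16 and S100b made up the low end. S100a11 stood at a mean of 3095 ± 774 TPM in LDH controls, 4167 ± 742 TPM in LDH knockouts, 1742 ± 226 TPM in Acly controls and 1805 ± 429 TPM in Acly knockouts (SD, n = 3). By mean TPM it ranked 42, 26, 88 and 84 among all genes in those groups. It made up 54.96% to 76.48% of the summed TPM of the 8 genes. Within each group, neighbours in the order had sample ranges that stayed apart, from S100a11 over S100a6 (3.14-fold to 6.49-fold by group) down to S100a4 over the next gene (2.25-fold to 2.85-fold). The exception was S100b beside S100a16 in LDH knockouts, whose samples overlapped at 1.03-fold.

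**Figure D1:**
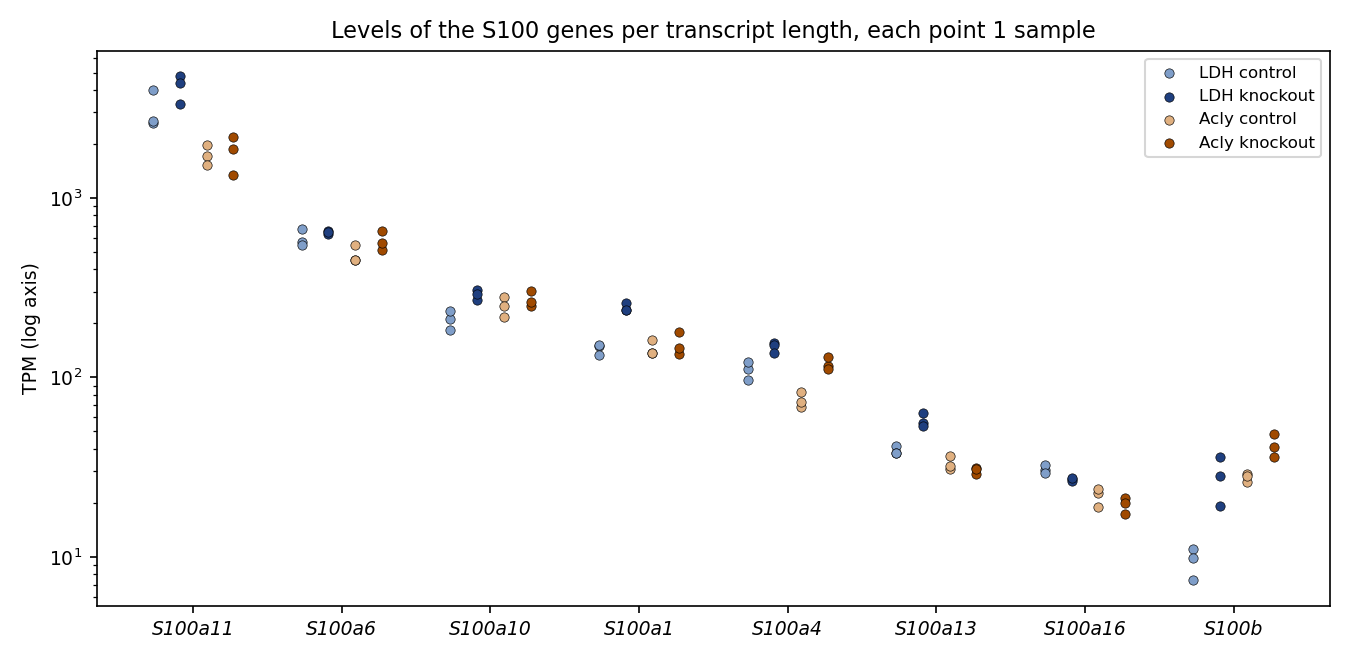
TPM of each S100 gene on a log axis, with genes ordered from most to least abundant and 1 point for each of the 12 samples, coloured by group. S100a11 lies between 1347 and 4789 TPM in every sample, and S100b moves from the lowest position in LDH controls (7.38 to 11.01 TPM) to above S100a13 in Acly knockouts (35.87 to 48.52 TPM).

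S100b changed its place in this order more than any other member. It was last in LDH controls at 9.4 ± 1.85 TPM and sixth of the 8 in Acly knockouts at 41.8 ± 6.37 TPM. The ratio of S100a1 to S100b, both cartilage members of the family, was 13.7 to 18 in LDH controls, 7.23 to 12.4 in LDH knockouts, 4.9 to 5.57 in Acly controls and 3.32 to 4.08 in Acly knockouts. No pair of these groups overlapped in that ratio, but between the LDH and the Acly set age, line and any batch coincide. How often other pairs of genes do so was not measured. The sum over the 7 members other than S100a11 was 1039 to 1261 TPM in LDH controls and 1412 to 1473 TPM in LDH knockouts, against 951 to 1164 and 1104 to 1365 TPM in the Acly controls and knockouts.

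Changes within each set were measured on expected counts scaled to CPM with TMM, and a gene was called at a Benjamini-Hochberg adjusted p under 0.05 by edgeR's quasi-likelihood test over all genes tested. In LDH knockouts S100b, S100a1, S100a13, S100a10 and S100a4 were called higher than in controls. That is 5 of the 8 members, where 1.43% of the 13321 genes tested were called higher and 2.49% were called in either direction. The median log2 fold change of the 8 was 0.48, against 0.01 over all genes tested. In Acly knockouts S100a4 was called higher, 1 of 8, where 0.0573% of 13973 genes were called higher and 0.136% in either direction. The median of the 8 was 0.21, against 0 over all genes. Since the genes were chosen with these changes known, nothing is read from either count.

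**Figure D2:**
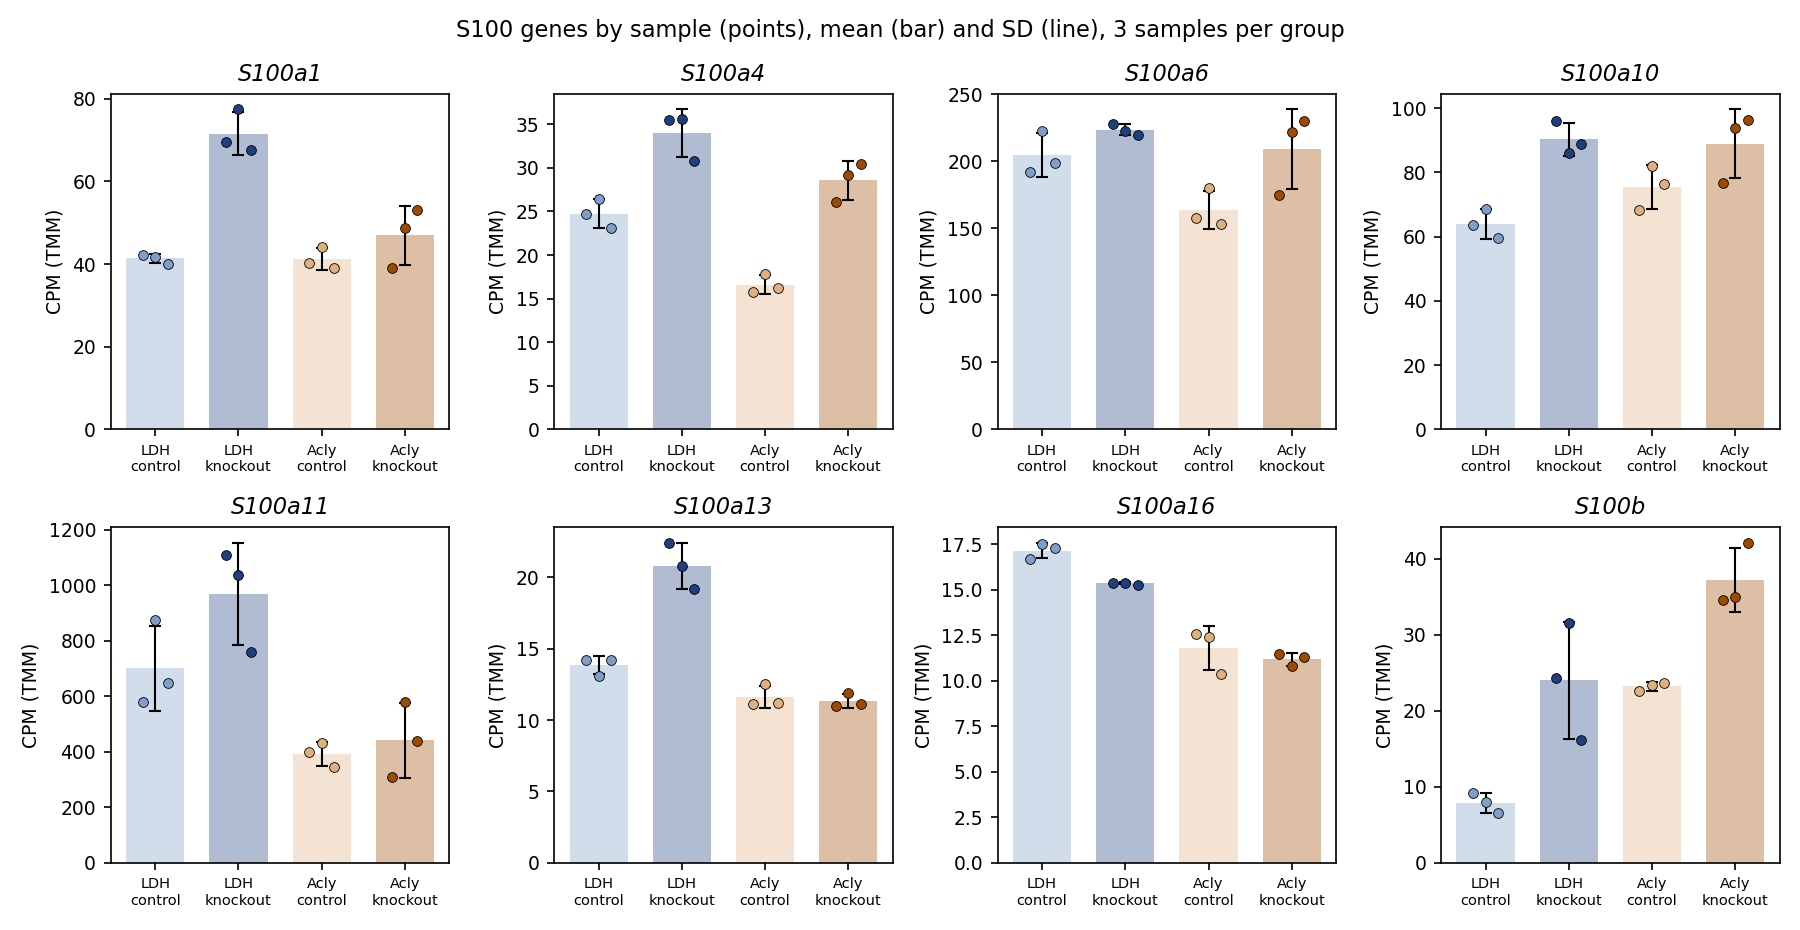
Normalised level of each S100 gene in CPM, scaled by TMM within each set of 6 samples, with points for samples, bars for the mean of 3 and lines for the SD. In LDH knockouts all 3 samples of S100a1, S100a4, S100a10, S100a13 and S100b lie above all 3 controls, and in Acly knockouts this holds for S100a4 and S100b. Of all genes tested, 11.9% in the LDH set and 10.7% in the Acly set did so, and the S100 genes were chosen with their changes known.

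Y-linked signal moved with the LDH groups, low in every knockout and high in controls 1 and 2. As a covariate it therefore largely coincides with the knockout, and the fit below cannot tell their parts in these changes apart. With the summed Y-linked signal as a covariate, 0 of the 8 members were called by edgeR and 3 genes were called in all, with 2026 genes at an unadjusted p under 0.05. The log2 fold changes under that covariate were 0.57 for S100a4, 0.62 for S100a10, 0.54 for S100a13, 0.84 for S100a1 and 1.90 for S100b. DESeq2, run without that covariate, called 6 of the 8. Every LDH knockout exceeded every control in each of the 5 called members, so a split by Y-linked signal had to show the same. Such a split also leaves 1 control with low signal, control 3, and allows no test. Control 3 also carried weight in the call: without it 1 member was called, without knockout 1 or control 1 the count was 2, and without knockout 2 or control 2 it was 3. Without knockout 3 it was 6. In the Acly set every knockout exceeded every control for S100a4 and S100b, so a split by Y-linked signal could add nothing.

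S100a1 and S100a13 lie head to head on chromosome 3, and S100a1 had the smallest adjusted p of the 8 in LDH knockouts. S100a1 (Entrez 20193) is best known from heart and skeletal muscle, where it acts on calcium release and uptake by the sarcoplasmic reticulum. S100a13 (Entrez 20196) is known for helping proteins such as FGF1, which lack a signal peptide, leave the cell. Their RefSeq start sites (assembly GRCm38.p6) are 105 bases apart and on opposite strands in the promoter table, and the stretch between them is printed because it lies directly upstream of both. Whether it acts on either gene was not tested. It is on the + strand at chr3:90514331-90514434, with S100a1 leaving to the left and S100a13 to the right, and holds 58.7% G and C.
S100a1-S100a13: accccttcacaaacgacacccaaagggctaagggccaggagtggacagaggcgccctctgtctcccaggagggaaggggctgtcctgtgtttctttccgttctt
No letters are in capitals because none of the motifs searched was found there. The first motif was a SOX core, ACAAAG or, as the alternative spelling of this core, the letters ACAATG. The others were the TATA box TATAAA, the GC box of letters GGGCGG and the AP-1 site with the letters TGACTCA. Each was read on both strands. The RefSeq span of S100a13 begins before the start site used here, inside S100a1, so the printed stretch is the interval for that start alone. The spans of the genes overlap by 98 bases, and it is not given whether counting used strand, so reads from the overlap cannot be assigned and the counts of both genes are uncertain to that extent.

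S100a1 stood at 69.5, 77.4 and 67.7 CPM in LDH knockouts 1 to 3 and at 42.3, 41.6 and 40.1 CPM in their controls. Every knockout lay above every control, a pattern that 11.9% of all genes tested in this comparison showed. The fold change was 1.73 (log2 0.79, SE 0.08, edgeR adjusted p = 0.0031), and the call held when any of the 6 samples was left out. S100a13 stood at 22.4, 20.8 and 19.2 CPM against 14.2, 13.1 and 14.2 CPM, again with no overlap (log2 0.59, SE 0.11, edgeR adjusted p = 0.024). Its call was lost in 5 of the 6 fits that left out a sample, where the edgeR adjusted p ranged from 0.0128 to 0.0992, and remained when LDH knockout 3 was the sample left out.

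In Acly knockouts neither gene of the pair was called. S100a1 was at 39.1, 48.6 and 53 CPM in knockouts and 40.3, 44.2 and 39.1 CPM in controls (log2 0.19, SE 0.12, edgeR adjusted p = 0.447), with knockout 1 as low as the lowest control. S100a13 was at 11, 11.9 and 11.1 CPM in knockouts and 11.1, 12.5 and 11.2 CPM in controls (log2 -0.03, SE 0.13, adjusted p = 0.902). The ratio of S100a1 to S100a13 in TPM was 3.49 to 3.97 in LDH controls and 3.78 to 4.65 in LDH knockouts, which overlap. It was 4.31 to 4.41 in Acly controls and 4.37 to 5.82 in Acly knockouts, which overlap as well.

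S100b (Entrez 20203), the chondrocyte and glial member, showed the largest fold change of the 8 in LDH knockouts and the largest SE on the log2 scale. It was at 24.3, 31.6 and 16.1 CPM in knockouts 1 to 3 and at 9.17, 7.98 and 6.57 CPM in controls. The lowest knockout lay above the highest control, and knockouts 2 and 3 were the farthest apart. The fold change was 3.03 (log2 1.60, SE 0.23, edgeR adjusted p = 0.00965). Leaving out control 3 ended the call at an adjusted p of 0.0557, with a log2 fold change that stayed between 1.36 and 1.82 over the 6 fits that left out a sample.

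In Acly knockouts S100b was at 34.6, 35 and 42.1 CPM and in their controls at 22.6, 23.4 and 23.7 CPM. All knockouts again lay above all controls, which 10.7% of the genes tested there showed, with a log2 difference of 0.68 (SE 0.11). Its edgeR adjusted p of 0.0694 missed the threshold, at rank 27 by p among the 13973 genes. It was called without the filter on low counts, by DESeq2 and when Acly knockout 2 was left out. The shared direction in the LDH and the Acly set is a count over chosen genes and was not used as evidence.

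The 250 bases before the S100b start site are printed because S100b was the member with the largest fold change in LDH knockouts and lies outside the chromosome 3 group. They are on the + strand at chr10:76253586-76253835 (GRCm38.p6, RefSeq) and hold 53.6% G and C and 2 CpG.
S100b: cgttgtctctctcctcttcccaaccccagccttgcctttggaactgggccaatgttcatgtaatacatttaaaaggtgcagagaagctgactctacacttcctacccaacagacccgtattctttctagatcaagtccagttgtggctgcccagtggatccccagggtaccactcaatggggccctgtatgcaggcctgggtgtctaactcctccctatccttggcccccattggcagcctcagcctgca
Again no letters are in capitals, because none of the searched motifs occurs in the window. Over all 32851 RefSeq windows of 300 bases (250 before and 50 after a start site), 28.6% hold a SOX core, 13.6% a TATA box, 35.7% a GC box and 5.2% an AP-1 site. Windows were found for 7 of the 8 members, 8 windows in all. A SOX core appeared in 1 of them, the downstream of the 2 S100a16 windows, and the absence of these letters elsewhere says nothing of enhancers outside the windows.

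The genes with the pattern most like that of S100b were sought by the root mean square difference of log2 CPM over the 12 samples, each gene centred on its own set of 6, among 10554 genes. Nearest were Acan, the core protein of the cartilage proteoglycan aggrecan (0.2), Pcolce2, an enhancer of procollagen processing (0.201), and Rbp4, the plasma retinol carrier (0.232). S100b itself varied by 0.64 on this scale. Acan reached 1691, 2194 and 1688 CPM in the LDH knockouts, against 899, 788 and 697 CPM in controls. The Acly set showed 1410, 1788 and 1871 CPM in knockouts and 1105, 1129 and 1200 CPM in controls. These samples share libraries and depth, so the likeness is a description.

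**Figure D3:**
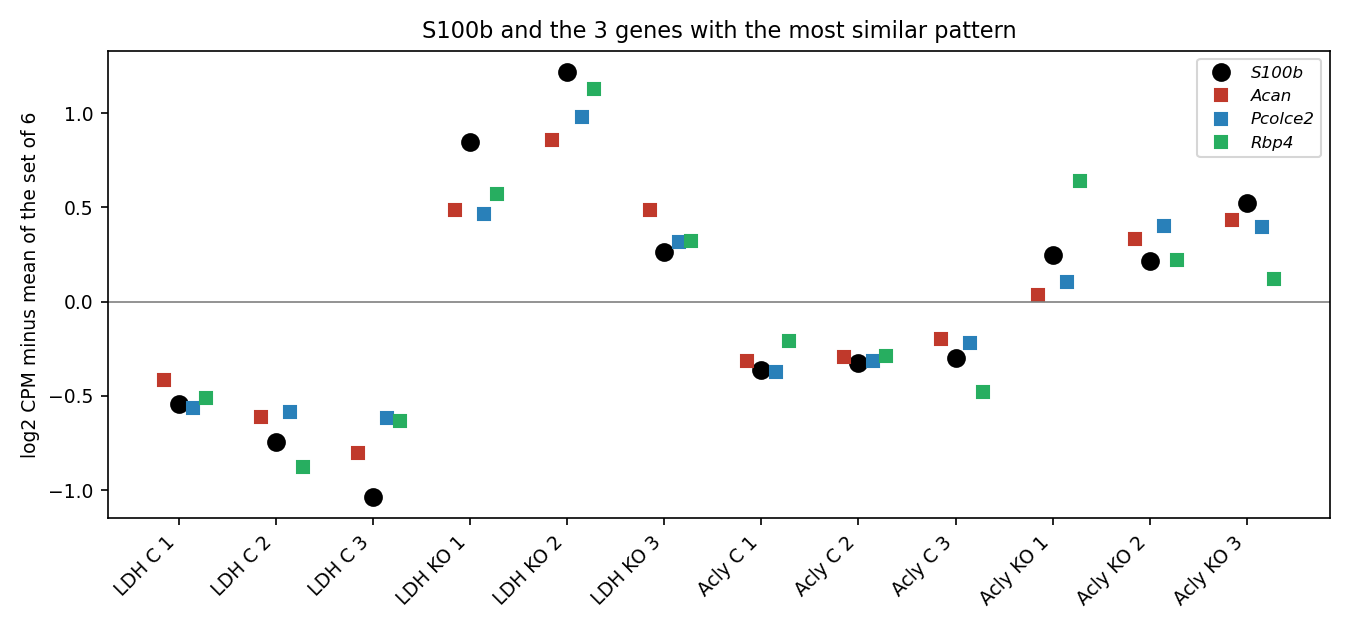
S100b (black circles) and the 3 genes nearest to it (squares) in each of the 12 samples, as log2 CPM minus the gene's mean over its own set of 6 samples. All 4 genes are highest in LDH knockout 2, lie below 0 in every control and lie above 0 in every knockout.

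Several cell populations with S100b of their own could be present, and their markers moved as follows. Of 11 fat cell markers tested, 8 were called higher in LDH knockouts and 0 lower (median log2 3.52). Their summed level was 42.1 to 57.1 CPM in LDH controls and 121, 177 and 92.2 CPM in knockouts 1 to 3. Plin1, which coats fat droplets, was at 4.67, 7.33 and 2.68 CPM in knockouts and 0.107 to 0.216 CPM in controls (CPM of total counts), and Lep was at 0 or at most 0.0725 CPM. In the Acly set the fat cell sum was 281 to 340 CPM in controls and 245 to 539 CPM in knockouts, with 0 of 11 called. Of the 8 Schwann cell and glia markers tested in the LDH set, 0 were called, the sum was 85.3 to 133 CPM in controls and 151 to 178 CPM in knockouts, and the defining gene Sox10 was at 1.33 to 3.42 CPM in controls and 1.45 to 3.01 CPM in knockouts. In the Acly set 0 of 10 were called, with 216 to 228 CPM in controls and 197 to 230 CPM in knockouts. The part of fat cells or glia in the S100b result was not tested. In bulk RNA a change in the number of cells of a type and a change in RNA per cell cannot be told apart.

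Chondrocyte markers moved in the same direction as S100b and S100a1 in these libraries. In LDH knockouts 10 of the 14 tested were called higher and 0 lower (median 1.22), led by Snorc, Col27a1 and Acan, and the summed level was 19837 to 29307 CPM against 10975 to 12668 CPM in controls. In Acly knockouts 4 of 15 were called higher (median 0.67), led by Comp, Col2a1 and Col27a1, with 16925 to 19181 CPM against 10081 to 11415 CPM. Of other lists in LDH knockouts, hypertrophic chondrocyte markers had 1 of 10 called higher (Col10a1) and 1 lower (Spp1), skeletal muscle markers 2 of 14 higher, osteoblast markers 2 of 5 lower (summed level 80 to 107 CPM against 150 to 266 CPM), and endothelial (7 tested) and red blood cell markers (4 tested) 0 called. In Acly knockouts 1 of 10 hypertrophic markers was called higher (Col10a1), and 0 of the muscle (15), osteoblast (7), endothelial (8) and red blood cell markers (5). The summed level of the hypertrophic markers was lower in both knockouts with no overlap, at 2711 to 4952 CPM against 6457 to 9032 CPM in the LDH set and 5083 to 6713 CPM against 7010 to 10232 CPM in the Acly set. Spp1, which bone cells also make, held most of that sum. The part of these marker levels in the S100 differences was not tested. The SOX trio known to act on S100a1 and S100b was not called in either comparison. In LDH knockouts Sox9, Sox5 and Sox6 had log2 differences of 0.40, 0.30 and 0.19 with edgeR adjusted p of 0.065, 0.138 and 0.289. Every knockout lay above every control for each of them, which 11.9% of all genes tested there showed. In Acly knockouts they were at 0.25, -0.28 and -0.10, with adjusted p of 0.445, 0.265 and 0.617.

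S100a4 (Entrez 20198) was the member called in both sets. It is also known as fibroblast-specific protein, binds the heavy chain of non-muscle myosin IIA (Myh9) and promotes cell movement. It stood at 26.1, 29.2 and 30.4 CPM in Acly knockouts 1 to 3 and at 15.8, 17.8 and 16.2 CPM in controls, with a wide gap between the groups. The fold change was 1.72 (log2 0.78, SE 0.11, edgeR adjusted p = 0.0448). The value lay between 0.72 and 0.84 under every alternative, whereas the call was lost in 5 of 6 fits that left out a sample (adjusted p from 0.0119 to 0.359) and remained when Acly knockout 2 was left out. No scaling (adjusted p = 0.0766), the Y-linked covariate (0.1) and the replicate block (0.151) ended it as well, and the lowest adjusted p with all samples kept was 3.17e-06, by DESeq2. For the LDH set S100a4 stood at 35.5, 35.6 and 30.8 CPM in knockouts and 24.7, 26.4 and 23.1 CPM in controls, again apart (log2 0.46, SE 0.09, edgeR adjusted p = 0.0384). That call too was lost in 5 of 6 such fits, with adjusted p from 0.015 to 0.164, and remained when LDH knockout 3 was left out.

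The sequence before the S100a4 start site is shown because it carried the TATA box found in the members' windows. It is on the + strand at chr3:90603520-90603769 (GRCm38.p6, RefSeq), with the TATA box in capitals, beginning 31 bases before the start.
S100a4: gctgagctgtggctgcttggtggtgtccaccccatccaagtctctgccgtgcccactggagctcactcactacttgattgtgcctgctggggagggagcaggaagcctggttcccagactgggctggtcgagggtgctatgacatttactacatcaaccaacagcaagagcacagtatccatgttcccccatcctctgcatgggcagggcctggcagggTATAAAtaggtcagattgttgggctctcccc
The genes nearest to S100a4 in pattern were Cyr61, a matricellular protein induced by growth factors and mechanical load (0.147), Adamtsl5 (0.147) and Apobr (0.152), where S100a4 itself varied by 0.325. None of these was called in either set. For S100a1, which varied by 0.302, the nearest were P3h2, a collagen prolyl 3-hydroxylase (0.081), Pea15a (0.109) and Msra, a repair enzyme for oxidised methionine (0.11). P3h2 had 79.5, 83.4 and 74.4 CPM in the LDH knockouts against 49.3, 47.6 and 45.9 CPM in their controls, while in the Acly set it stood at 42.6 to 46.6 CPM in knockouts and 41.1 to 43.8 CPM in controls. Of the other members, S100a10 was the 18th and S100a13 the 29th nearest of the 10554 genes to S100a1. S100a11 was at rank 731, S100a6 at 859, S100a4 at 967, S100a16 at 6730 and S100b at 7309. As the members were chosen with their changes known, nothing is read from these ranks.

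Markers of fibroblasts and the perichondrium, where S100a4 is also made, were compared beside it. In LDH knockouts 0 of 15 were called higher and Col1a2 was called lower, with a summed level of 39434 to 43756 CPM against 32456 to 44857 CPM in controls. In Acly knockouts 0 of 15 were called, with 13874 to 18508 CPM against 16651 to 19733 CPM. Of neutrophil and macrophage markers 0 of 12 and 0 of 11 were called, at 111 to 210 against 106 to 164 CPM in the LDH set and 174 to 193 against 155 to 181 CPM in the Acly set. Their part in the S100a4 result was not tested.

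S100a10 (Entrez 20194) is the member that does not bind calcium and is held in the open form. It forms a stable complex with annexin A2 at the inner face of the plasma membrane. It had 96, 86.1 and 89 CPM in the LDH knockouts, against 63.7, 68.6 and 59.5 CPM in controls, with no overlap (log2 0.50, SE 0.08, edgeR adjusted p = 0.0171). The call was lost in 3 of the 6 fits that left out a sample, those without knockout 1, control 1 or control 3 (adjusted p up to 0.083 over the 6). In Acly knockouts it was at 76.8, 94 and 96.2 CPM against 68.2, 82 and 76.3 CPM, where the groups overlapped (log2 0.24, edgeR adjusted p = 0.345). Its partner Anxa2 showed 482 ± 35.7 CPM in the LDH knockouts, against 452 ± 17.1 CPM in controls (log2 0.09, adjusted p = 0.591). In Acly knockouts Anxa2 was at 486 ± 31.3 CPM against 386 ± 21.5 CPM and was not called (log2 0.33, edgeR adjusted p = 0.223). All knockouts lay above all controls, as for 10.7% of genes tested there.

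S100a11 (Entrez 20195), which binds annexin A1 and is known to be released by chondrocytes, varied most between samples of a group among the abundant members. Its levels were 1109, 1036 and 759 CPM in the LDH knockouts, against 581, 874 and 648 CPM in controls. Knockout 3 lay below control 2, and the difference was not called by edgeR (log2 0.47, SE 0.17, adjusted p = 0.18). DESeq2 called it at an adjusted p of 0.0474, as did edgeR without knockout 3 at 0.0497. Among Acly samples it was at 309, 579 and 439 CPM in knockouts, which include both the lowest and the highest value of the set, and 401, 430 and 345 CPM in controls (log2 0.17, SE 0.20, edgeR adjusted p = 0.664). RefSeq lists a pseudogene of S100a11 that is absent from the table, and reads that fit both could have been counted to S100a11. The sequence before its start site is printed as the only member window with AP-1 matches. It lies on the + strand at chr3:93520246-93520495 (GRCm38.p6, RefSeq), with 3 GC boxes (GGGCGG) and 2 AP-1 matches (TGAGTCA, the reverse strand of TGACTCA) in capitals and 11 CpG.
S100a11: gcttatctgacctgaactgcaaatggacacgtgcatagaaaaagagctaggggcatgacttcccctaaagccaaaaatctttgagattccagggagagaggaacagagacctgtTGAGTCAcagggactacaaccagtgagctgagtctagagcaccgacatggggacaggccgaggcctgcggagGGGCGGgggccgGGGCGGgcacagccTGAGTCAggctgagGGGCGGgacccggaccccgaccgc

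S100a6, or calcyclin (Entrez 20200), and S100a16 (Entrez 67860) were not called in either set. S100a6 had 228, 223 and 220 CPM in the LDH knockouts, against 192, 223 and 199 CPM in controls (log2 0.13, SE 0.08, edgeR adjusted p = 0.419). Among Acly samples it was at 175, 222 and 230 CPM in knockouts and 158, 180 and 153 CPM in controls (log2 0.36, SE 0.12, edgeR adjusted p = 0.261), with knockout 1 below control 2. S100a16 was the member with lower means in both knockouts. Its levels were 15.4, 15.4 and 15.3 CPM in the LDH knockouts, against 16.7, 17.5 and 17.3 CPM in controls, all knockouts below all controls, with a log2 difference of -0.16 (SE 0.10, edgeR adjusted p = 0.404). Of all genes tested there, 12.5% had every knockout below every control. Acly knockouts had 11.5, 10.8 and 11.3 CPM against 12.6, 12.4 and 10.4 CPM (log2 -0.07, adjusted p = 0.791).

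**Figure D4:**
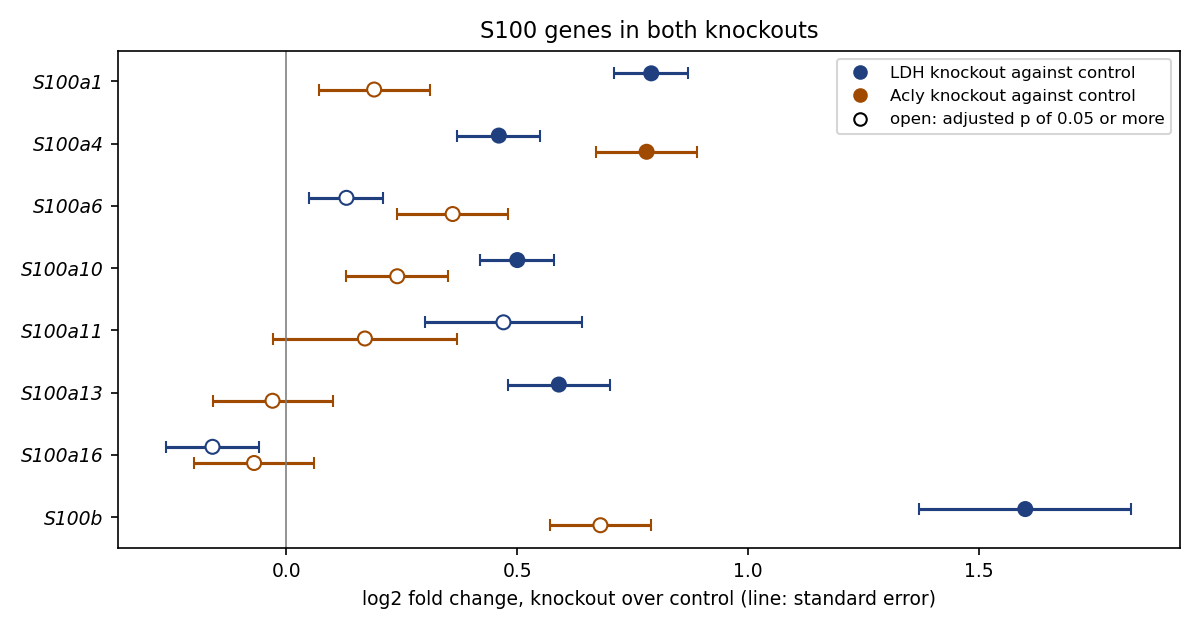
Log2 fold change of each S100 gene, knockout over control, in the LDH set (blue) and the Acly set (brown), with lines for the standard error and filled points for an edgeR adjusted p under 0.05. S100b is farthest to the right in the LDH set at 1.60 and S100a4 in the Acly set at 0.78.

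Whether the knockouts differed in their effect on a member was tested as an interaction over all 12 samples, where 23 of 14251 genes (0.161%) were called by edgeR. The targeted gene coincides here with age, line and any batch, and these cannot be told apart. Y-linked signal, which moved with the LDH groups, was not fitted as a covariate in the interaction. None of the 8 members was called (0 of 8, with 1855 of all genes at an unadjusted p under 0.05). The LDH effect minus the Acly effect was 0.64 for S100a13 (SE 0.15, edgeR adjusted p = 0.108), 0.62 for S100a1 (SE 0.14, adjusted p = 0.119) and 0.93 for S100b (SE 0.27, adjusted p = 0.216). For S100a4 it was -0.31 (SE 0.14, adjusted p = 0.357). DESeq2 called 2 members, S100a1 and S100a13, and edgeR without LDH knockout 3 called S100b. By the main test no member called in the LDH set alone was shown to respond differently in the Acly set.

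The control groups were compared to see the levels in cells without a knockout, a contrast in which age, line and any batch coincide and cannot be told apart. It came from the fit of all 12 samples, with 14251 genes tested and 55.0% called (29.4% higher and 25.7% lower in Acly controls), so that calls were common. S100b was higher in Acly controls at day E18.5, at 22 ± 0.472 CPM against 8.37 ± 1.42 CPM in LDH controls at postnatal day 5 (log2 1.40, SE 0.20, edgeR adjusted p = 7.26e-05). In the other direction, 5 of the 8 members were called lower: S100a11 (-0.99, SE 0.21), S100a4 (-0.73, SE 0.10), S100a16 (-0.70, SE 0.10), S100a6 (-0.48, SE 0.10) and S100a13 (-0.41, SE 0.10), with edgeR adjusted p from 3.81e-05 to 0.00426. S100a11 had 372 ± 41.3 against 742 ± 163 CPM and S100a4 at 15.8 ± 0.974 against 26.2 ± 1.82 CPM. S100a1 (-0.16, adjusted p = 0.2) and S100a10 (0.08, adjusted p = 0.494) were not called.

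Total counts without scaling moved the median of all genes in this contrast from 0.02 to 0.19 and the share of calls that were higher from 53.3% to 72.4%. With that shift S100b, S100a11, S100a4, S100a16 and S100a6 kept their direction and call, S100a13 lost its call (edgeR adjusted p = 0.0727), S100a10 gained one and S100a1 turned to 0.01, below the median of all genes. Markers of chondrocytes and of cells around cartilage also differed here. Of 15 chondrocyte markers 10 were called higher and 1 lower in Acly controls (median log2 1), though their sums overlapped (10081 to 11415 against 10975 to 12668 CPM). Of 10 hypertrophic markers 8 were called higher and 1 lower (median 2.02). Of 15 fibroblast and perichondrium markers 12 were called higher and 2 lower (median 1.25), with a lower sum (16651 to 19733 against 32456 to 44857 CPM). All 11 fat cell, all 15 skeletal muscle and all 8 endothelial markers tested were called higher in Acly controls, and of 10 Schwann cell and glia markers 7 were called higher, with summed levels of 216 to 228 CPM against 85.3 to 133 CPM. Skeletal muscle markers summed to 431 to 541 CPM against 34.9 to 61.5 CPM, and endothelial ones to 104 to 119 CPM against 13.2 to 19.1 CPM. Sox10 was at 20.8 to 23.8 CPM in Acly controls and 1.33 to 3.42 CPM in LDH controls. The part of any of these cell types in the higher S100b was not tested.

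In RefSeq order the chromosome 3 members fall in a run of 12 S100 genes from S100a1 to S100a9, and S100a11 and S100a10 lie next to each other elsewhere on the chromosome. The genes beside the run on the S100a1 side, Chtop, Snapin, Ilf2, Npr1 and Ints3, were tested and none was called in either set. In LDH knockouts they ranged from -0.24 (Npr1, SE 0.27) to 0.31 (Ilf2, SE 0.09, edgeR adjusted p = 0.0995). Within the run S100a1 (0.79) and S100a13 (0.59) are neighbours and were both called in LDH knockouts. S100a16 (-0.16), not called, lies between S100a13 and the called S100a4 (0.46). S100a6 (0.13), not called, comes after S100a4, with the untested S100a5 between them. Between S100a13 and S100a4 also lie S100a14 and S100a2, not tested, and S100a3 (0.16), not called. Beside S100a11 (0.47, not called) and S100a10 (0.50, called), Tchh was the flanking gene tested, and it was called in LDH knockouts (0.88, edgeR adjusted p = 0.0442) and not in Acly knockouts (-0.08). On chromosome 10, Prmt2 (0.07, adjusted p = 0.745) and Dip2a (0.28, adjusted p = 0.214) on either side of S100b were not called in LDH knockouts, nor in Acly knockouts (0.04 and -0.11).

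**Figure D5:**
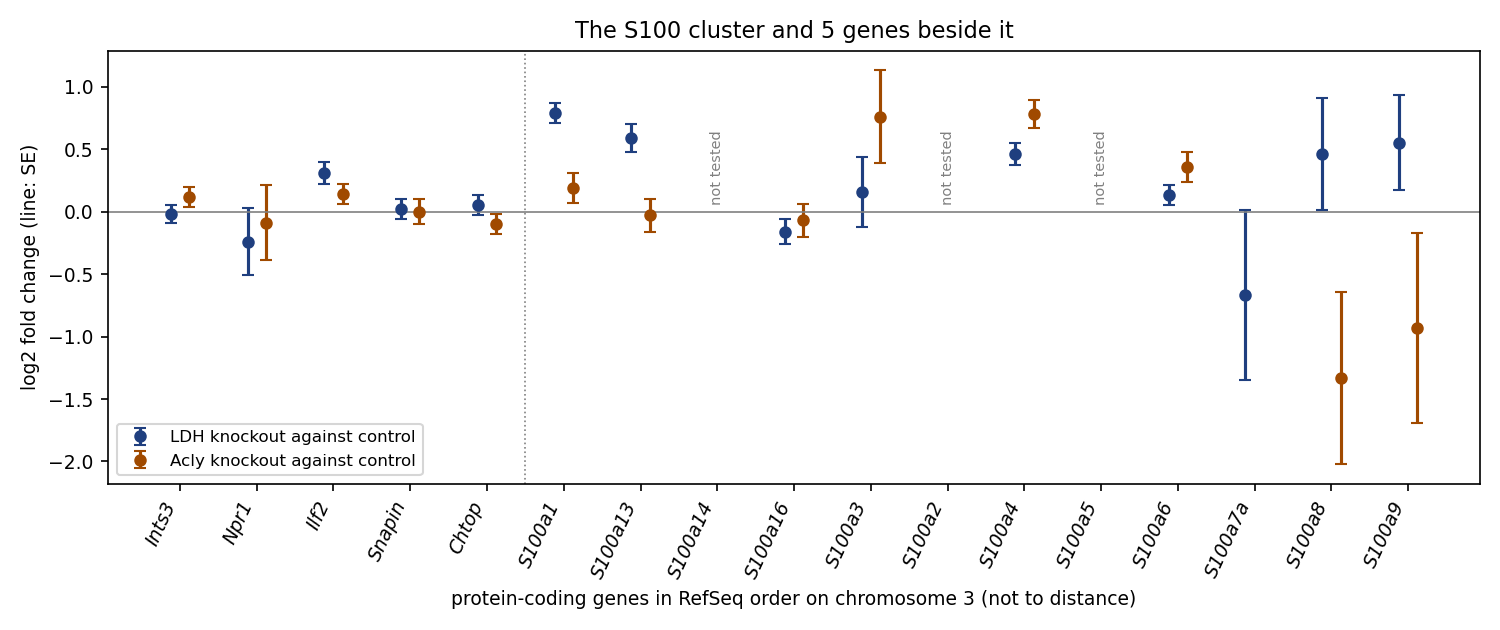
Log2 fold change (points) with SE (lines) of the S100 genes on chromosome 3 from S100a1 to S100a9 and of the 5 genes beside them, in RefSeq order and not to distance, for the LDH set (blue) and the Acly set (brown). The 5 flanking genes left of the dotted line lie between -0.24 and 0.31, and genes marked as not tested had counts under the filter.

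The other 8 S100 genes in the table were low. S100a3 held 13 to 42 counts in a sample, S100a8 2 to 70 and S100a9 1 to 68, the last a pair that neutrophils make in bulk. None of the 4 genes tested in the LDH set was called: S100a3 (0.16), S100a7a (-0.67), S100a8 (0.46) and S100a9 (0.55), with edgeR adjusted p from 0.464 to 0.791. Nor were the 3 tested in the Acly set, S100a3 (0.76), S100a8 (-1.33) and S100a9 (-0.93), with adjusted p from 0.346 to 0.537. S100a2, S100a5, S100a14 and S100g had at most 4 counts in any sample. Of the long epidermal proteins that begin with an S100 domain, Tchh was tested. It was called in LDH knockouts at 5.36 ± 1.07 against 2.9 ± 0.134 CPM (log2 0.88, SE 0.19, edgeR adjusted p = 0.0442) and not in Acly knockouts (-0.08). Of epidermis markers 0 of 3 were called in the LDH set, with 22.1 to 40.3 against 43.3 to 49.4 CPM, and 0 of 6 in the Acly set, with 31.8 to 47.5 against 48 to 48.4 CPM.

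The proteins that S100 dimers bind are read against the 2.49% of all genes tested that were called in LDH knockouts and the 0.136% in Acly knockouts. Of 10 annexins tested in LDH knockouts, Anxa11 was called (log2 0.39, SE 0.08, edgeR adjusted p = 0.0442), at 391 ± 22.2 CPM against 299 ± 15 CPM. The others were Anxa1 (0.38), Anxa3 (0.20), Anxa7 (0.16), Anxa2 (0.09), Anxa4 (0.05), Anxa6 (-0.09), Anxa5 (-0.10), Anxa8 (-0.11) and Anxa9 (-0.53), and the median of the 10 was 0.07. In Acly knockouts 0 of 10 were called by edgeR, from Anxa2 (0.33) over Anxa9 (0.11), Anxa11 (0.08), Anxa7 (0.05), Anxa4 (-0.02), Anxa5 (-0.02), Anxa3 (-0.04), Anxa6 (-0.06) and Anxa1 (-0.08) to Anxa8 (-0.47), with a median of -0.02. Of 17 other binding partners 0 were called in either set (medians -0.05 and -0.09). Myh9, the myosin bound by S100a4, was at 761 ± 74.6 against 888 ± 27.9 CPM in the LDH set (log2 -0.22, edgeR adjusted p = 0.229) and 639 ± 18 against 614 ± 39.1 CPM in the Acly set (0.06, adjusted p = 0.749). Mdm2, which S100 proteins are known to bind along with p53, was at -0.71 in LDH knockouts (SE 0.24, adjusted p = 0.149).

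Of 7 receptors for secreted S100 proteins 0 were called in either set (medians 0.10 and 0.14). Ager, the receptor RAGE, was low at 1.16 ± 0.189 against 0.935 ± 0.0152 CPM in the LDH set and 2.68 ± 0.267 against 2.43 ± 0.489 CPM in the Acly set. Tlr4 was at 27.4 ± 4.42 against 25.7 ± 3.66 CPM in the LDH set. For the Acly set Tlr4 was at 22 ± 3.9 against 31 ± 2.96 CPM, with an edgeR adjusted p of 0.236. Other calcium-binding proteins, most of them with EF hands, were described for contrast: 0 of 21 were called in the LDH set and 0 of 23 in the Acly set (medians 0 and 0.05). The lowest p among them in LDH knockouts belonged to Calr, a calcium-binding chaperone of the endoplasmic reticulum that has no EF hand, at 1248 ± 182 against 1773 ± 118 CPM (log2 -0.51, SE 0.12, edgeR adjusted p = 0.0526), and to Sparc, a calcium-binding matrix protein (0.43, SE 0.11, adjusted p = 0.0667).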

How the data were processed

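The authors deposited 1 table with a read count, FPKM and TPM for each gene and sample, per the file headers. Between 7.32% and 8.16% of the deposited counts of a sample were not whole, so these deposited values were treated as estimated counts (expected counts) and rounded. The counts of the 8 S100 genes were whole. HISAT2 2.0.4 and build mm9 are named, with no role, per the submitters' processing notes. The counting program, annotation and use of strand are not given in the sources used here. A build other than that of the reference at hand meant that no coordinates of the table's genes were used, and sequences come from RefSeq on GRCm38.p6. The authors' deposited FPKM values served an alternative test and the authors' deposited TPM values the levels between genes. Depth is in the report, and 3 counts equal 0.107 to 0.114 CPM, a floor that covers counting error only.

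Expected counts were tested with edgeR 4.0.16 in R 4.3.3 (TMM, filterByExpr, two-sided quasi-likelihood F tests, Benjamini-Hochberg adjustment over all genes tested, threshold 0.05). Each knockout was fitted with its own control (6 samples). The interaction and the control comparison used all 12 samples. An SE is the log2 fold change divided by the square root of F. Scripts were tested on simulated data. Alternatives were RLE scaling, no scaling, no filter, DESeq2 1.42.0, limma 3.58.1 on log2(FPKM + 0.1), the replicate number as a block, a fit of all 12 samples, a Y-linked covariate, and leaving out each sample. Pairs of samples of a group differed by more than sampling noise. CPM are TMM-scaled within a set of 6, or over all 12 samples for the control comparison. Marker sums, defining markers given by sample and Y-linked signal are CPM of total counts.

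The 8 members and the gene lists (202 of 212 genes found) were chosen with earlier results of these data known. Genes named are the members, the targeted genes, from each list up to 3 genes with the lowest p, every tested annexin and S100 family gene, and for S100a1, S100a4 and S100b the 3 genes nearest in pattern among those with a mean of at least 5 CPM. Neighbouring genes, and Sox10, Plin1, Lep, Myh9, Ager and Anxa2, were named for their role. The values of 1 marker gene are not reported here.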

Additional observations from a re-analysis of the deposited data

How the results depend on the processing

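Each knockout was refitted with another scaling, filter, test or set of samples, and where a value moved the cause was not tested. In the LDH comparison, 332 genes and 5 members were called. DESeq2 called 901 genes, the Y-linked covariate left 3 genes and 0 members, and leaving out a sample gave 95 to 1068 genes and 1 to 6 members, the lowest without control 3 and the highest without knockout 3. In the Acly comparison, 19 genes and 1 member were called. Counts were 11 genes and 0 members with no scaling, 32 and 2 with no filter, 247 and 2 by DESeq2, 31 genes in the fit of all 12 samples, and 6 genes and 0 members with the Y-linked covariate. Leaving out an Acly sample gave 0 to 132 genes and 0 to 2 members. The fit lacking control 1 called 0 genes by edgeR (2323 had an unadjusted p below 0.05), as did the fit lacking control 3 (1008). Lacking knockout 2 it called 132. With no scaling 27.3% and on FPKM 31.6% of the Acly calls were higher, against 42.1%. For the difference between the effects (23 genes, 0 members), DESeq2 called 213 genes and 2 members, and leaving out a sample gave 5 to 143 genes and 0 to 1 members, the highest without LDH knockout 3. Samples of the same number did not deviate together (correlations of -0.159 to 0.049 for LDH and -0.223 to 0 for Acly samples), so the numbers are not taken as pairs. With the replicate number as a block, 362 genes and 5 members were called in the LDH comparison, 8 genes and 0 members in the Acly comparison and 5 genes for the difference between the effects. Signs turned for 4 values near 0: S100a11 in Acly knockouts without knockout 2 (-0.06, in a range up to 0.38 over samples left out), S100a13 in Acly knockouts without control 2 (0.02, down to -0.07), S100a1 between the controls with no scaling or on FPKM (0.01 in both), and the interaction of S100a16 without Acly control 3 (0.01, down to -0.12). S100a10 between the controls was called with no scaling and on FPKM. Called members kept their direction under every alternative run.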
